A study of Mus musculus with 4 samples.

Results

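The 9 genes described here make and sense the leukotrienes, prostaglandins and platelet-activating factor, the lipid mediators of inflammation. They were taken by gene symbol from the deposited count table, which lists 54532 genes, and are Alox5, Alox5ap, Lta4h and Ltc4s of leukotriene synthesis, Ptgs1, Ptgs2 and Ptges of prostaglandin synthesis, and the receptor genes Ltb4r1 and Ptafr. RNA was sequenced from bone marrow neutrophils of wild-type (WT) mice. One group of 2 libraries, Aβ40 1 and 2, came from cells given Aβ40, an amyloid-beta peptide that deposits in vessel walls, at 20 µg/ml for 4 h per the series' description. The other group of 2 libraries, DMSO 1 and 2, came from cells given the solvent DMSO, with no time stated. The series' description names the release of neutrophil extracellular traps after Aβ40 as the question. The labels do not say whether libraries of a group came from separate mice or cultures, so p-values measure the spread between these libraries, which may be technical.

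In these pathways arachidonic acid, freed from membrane phospholipids by phospholipase A2, is turned by 5-lipoxygenase and its membrane partner into leukotriene A4. Leukotriene A4 hydrolase converts that intermediate into leukotriene B4, a strong attractant of neutrophils that acts through the receptor BLT1. Cyclooxygenases take the same arachidonic acid to prostaglandin H2, from which terminal synthases such as the microsomal prostaglandin E synthase make the individual prostaglandins. Platelet-activating factor, a phospholipid made by activated leukocytes, acts through its own receptor and primes neutrophils.

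The upstream sequences of 3 of the genes are shown because these genes span the observed range of differences between the groups: Ltb4r1 had the lowest log2 fold change of the 8 genes tested, Ptgs2 the highest, and Ptgs1 is the constitutive partner of Ptgs2. Each is the 250 bases before the RefSeq start site (GRCm38.p6, written 5′ to 3′ along the gene). Capitals mark matches on either strand to GAGGAA, the core of sites for the myeloid factor PU.1, or to GGGCGG, the GC box. The windows are chr14:55765712-55765961 (plus strand) for Ltb4r1, chr2:36230176-36230425 (plus strand) for Ptgs1 and chr1:150099781-150100030 (plus strand) for Ptgs2.
Ltb4r1: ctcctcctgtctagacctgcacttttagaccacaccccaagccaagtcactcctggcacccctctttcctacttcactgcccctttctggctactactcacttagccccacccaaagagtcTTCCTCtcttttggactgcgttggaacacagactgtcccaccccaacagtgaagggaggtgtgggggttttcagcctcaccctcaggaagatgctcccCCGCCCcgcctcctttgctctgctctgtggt
Ptgs1: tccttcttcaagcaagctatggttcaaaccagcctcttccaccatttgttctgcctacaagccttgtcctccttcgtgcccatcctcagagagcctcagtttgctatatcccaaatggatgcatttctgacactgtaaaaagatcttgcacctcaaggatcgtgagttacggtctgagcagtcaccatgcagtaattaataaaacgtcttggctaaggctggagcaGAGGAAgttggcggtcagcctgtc
Ptgs2: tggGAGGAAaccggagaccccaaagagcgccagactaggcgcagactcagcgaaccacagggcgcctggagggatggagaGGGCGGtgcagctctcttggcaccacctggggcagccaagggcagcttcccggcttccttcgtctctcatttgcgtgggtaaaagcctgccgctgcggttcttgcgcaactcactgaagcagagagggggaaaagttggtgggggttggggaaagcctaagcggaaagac

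RefSeq windows were found for 8 of the 9 genes, and Alox5ap had none. For Ptges the RefSeq start lies 26566 bases from the start of the gene in the deposited table. The Ptges window is therefore inside the gene as counted. GAGGAA or its reverse TTCCTC occurred in 7 of the 8 windows, against 23.3% of all 32851 promoter windows of the same length. In Ltb4r1 the match began 129 bases before the start site, in Ptgs1 24 bases and in Ptgs2 247 bases before it. GGGCGG or its reverse CCGCCC occurred in 5 of the 8 windows (Alox5, Ltb4r1, Ptafr, Ptges and Ptgs2), against 32.7% of all windows, and Ptgs1 had no match. A search on both strands for TATAAA (the TATA motif), TGACGTCA (cyclic AMP response element) and CACGTG (E-box) found 0 of the 8 windows for each, against 12.4%, 1.55% and 6.02% of all windows. No match overlapped another motif. These matches describe letters in the windows and are not evidence of binding.

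Counts per library totalled between 17212264 and 19524125, and 1 count was worth between 0.0523 and 0.0585 CPM, the unit of level used below, in which a count is divided by its library's size after correction by the trimmed mean of M-values (TMM). Neutrophil identity was checked on 14 marker genes, all of which had counts, with S100a9 the most abundant. Their summed level was 149460 and 141910 CPM in the Aβ40 libraries, against 144930 and 103855 CPM in the DMSO libraries. The sum was lowest in DMSO 2, as were its most abundant genes S100a9, S100a8 and Ngp. The markers did not all go this way. Csf3r, Cxcr2 and Mmp9 were highest in DMSO 2, at 755, 310 and 1011 CPM. Of these 14 markers 0 were called. Their log2 fold changes had a median of 0.10 and went both ways, 9 above 0 and 5 below. Both Aβ40 libraries lay below both DMSO libraries for 4 of the 14 and above for 2, against 21.9% and 23.2% of all genes. The 4 below were Csf3r, the G-CSF receptor gene (-0.61), Mmp9, a granule protease gene (-0.55), Mpo (-0.30) and Cxcr2 (-0.10). The differences of Csf3r and Mmp9 were of about the size seen below for Ptgs1 and Ptafr, and those of Mpo and Cxcr2 were smaller. The 2 above were S100a9 (0.38) and Ly6g (0.35). Summed markers of several other cell types were higher in both Aβ40 libraries: the 9 eosinophil markers, all with counts, summed to 3641 and 3709 CPM with Aβ40 against 1675 and 1388 CPM with DMSO, and the 12 B cell markers, all with counts, to 1286 and 1287 CPM with Aβ40 against 554 and 645 CPM with DMSO. The 12 T and NK cell markers, all with counts, summed to 106 and 113 CPM with Aβ40 against 69.2 and 67.2 CPM with DMSO. Of the 11 tested, 1 was called, Gzmb, against 0.126% of all genes. The 8 dendritic cell markers, all with counts, summed to 586 and 602 CPM with Aβ40 against 377 and 360 CPM with DMSO, and 0 were called. In bulk RNA, a smaller number of cells of a type and less RNA per cell cannot be told apart. Of genes averaging 5 CPM or more, 63.4% were further apart in the DMSO pair than in the Aβ40 pair.

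No gene of the 9 was called between Aβ40 and DMSO. Per transcript length the 9 were led by genes of the leukotriene B4 arm (Alox5ap, Ltb4r1 and Lta4h), and Ptges and Ltc4s were lowest. Of the 8 genes that could be tested, the receptor genes Ltb4r1 and Ptafr and the prostaglandin synthesis genes Ptgs1 and Ptges had both Aβ40 libraries below both DMSO libraries, while Alox5, Alox5ap, Lta4h and Ptgs2 overlapped. Ltc4s had too few counts. The edgeR quasi-likelihood test with Benjamini-Hochberg adjustment over 13479 genes called 0 of the 8 at an adjusted p under 0.05, against 0.126% of all genes, and 0% of all genes were called lower. At an unadjusted p under 0.05, 4 of the 8 were lower and 0 higher, where 5.72% of all genes were lower and 6.51% higher. Groups did not overlap, with Aβ40 below, for the same 4 genes, and this held for 21.9% of all genes (45.1% did not overlap in either direction). The 8 log2 fold changes had a median of -0.39, against 0.01 over all genes. The same count of calls was 1 with DESeq2, against 1.21% of all genes with an adjusted p (0.297% lower). It was also 1 with edgeR's likelihood ratio test, against 1.64% of all genes (1.19% higher and 0.453% lower). Both called Ltb4r1, as lower. Limma-voom called 0 of the 8 and 0.185% of all genes. Left-out libraries moved the count among all genes too. Each such fit takes its spread from the pair left whole, so its calls do not reflect spread within the other group. Without DMSO 1, 3 of the 8 were called (Alox5, Ltb4r1 and Ptafr, all lower), where 8.93% of all genes were called (1276 genes), 5.63% higher and 3.29% lower. Without DMSO 2, 3 were called (Alox5ap, Ltb4r1 and Ptges, all lower), where 7.16% of all genes were called (1024 genes), 3.88% higher and 3.28% lower. Without either Aβ40 library the count was 0 of the 8 and 0 of all genes.

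**Figure D1:**
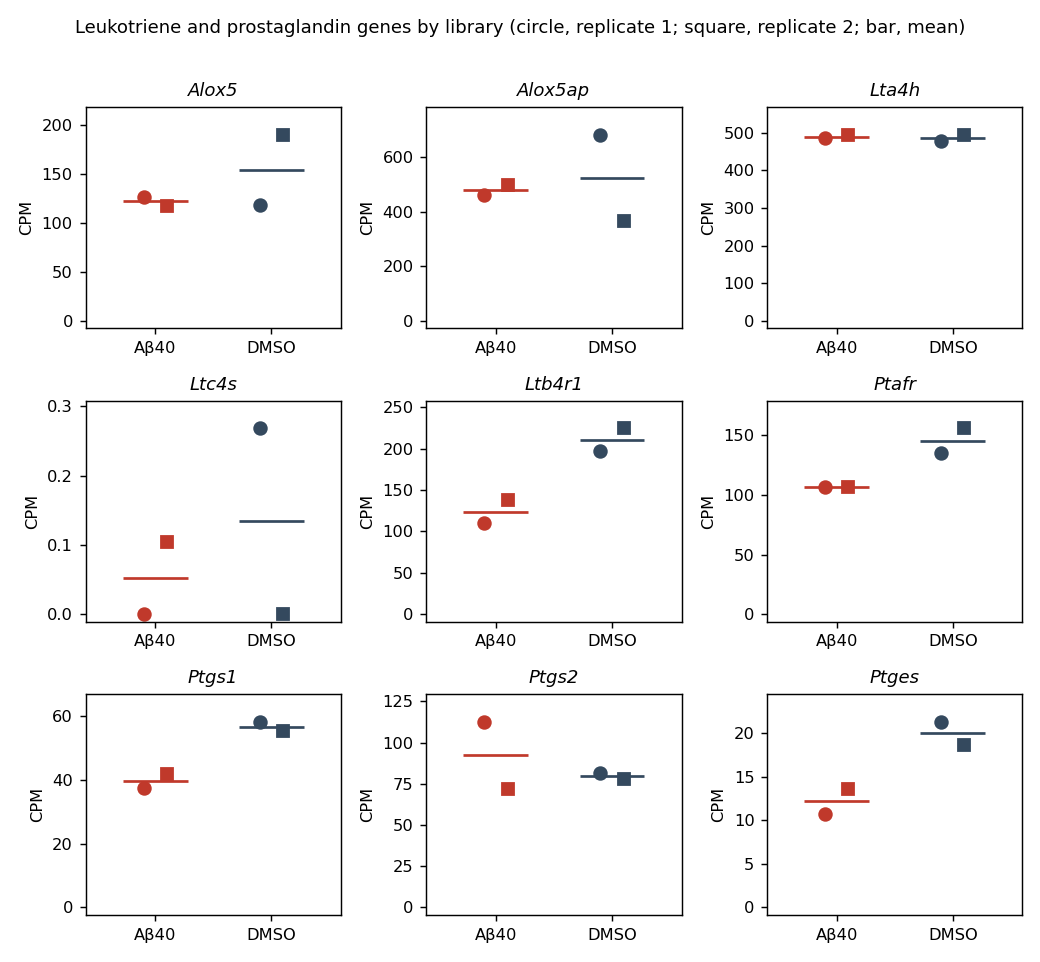
Level of each of the 9 genes in CPM (linear axes starting at 0) in the Aβ40 libraries, left, and the DMSO libraries, right; circles are replicate 1, squares replicate 2 and bars the mean of 2 libraries. Both Aβ40 libraries lie below both DMSO libraries for Ltb4r1, Ptafr, Ptgs1 and Ptges, and the DMSO libraries lie far apart for Alox5 and Alox5ap.

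In FPKM, the deposited level per transcript length, the 9 genes spanned a wide range. Alox5ap led with 319 and 346 FPKM in the Aβ40 libraries and 477 and 256 FPKM in the DMSO libraries. Ltb4r1 came next with DMSO, at 140 and 160 FPKM, and lay above Lta4h at 77.7 and 80.4 FPKM. With Aβ40 those neighbours did not separate: Ltb4r1 had 77.7 and 97.7 FPKM and Lta4h 78.2 and 79.9 FPKM. Ptafr and Alox5 overlapped in each group. Ptafr had 28.9 and 29.1 FPKM with Aβ40 against 37.0 and 42.6 FPKM with DMSO, and Alox5 had 30.4 and 28.3 FPKM with Aβ40 against 28.8 and 45.9 FPKM with DMSO. Below them stood the cyclooxygenases, with Ptgs2 above Ptgs1 in every library. Ptges was lower still, between 2.69 and 5.40 FPKM over the 4 libraries, and Ltc4s was at most 0.263 FPKM.

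**Figure D2:**
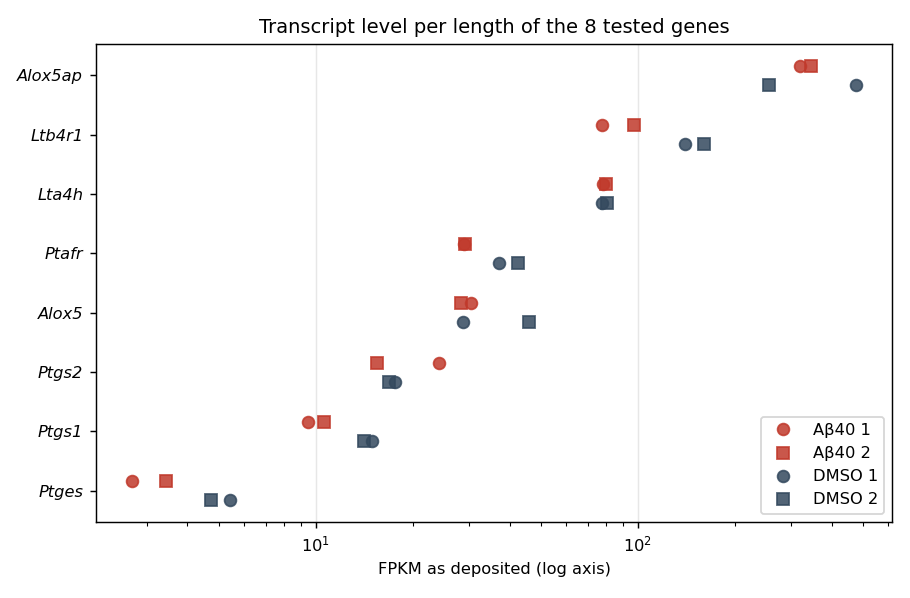
Deposited FPKM (log axis) of the 8 tested genes, ordered by their mean over 4 libraries, with Aβ40 points above DMSO points in each row; circles are replicate 1 and squares replicate 2. Alox5ap is at 256 to 477 FPKM and Ptges at 2.69 to 5.40 FPKM, and the Aβ40 points of Ltb4r1 reach the level of Lta4h.

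Among the receptor genes, Ltb4r1 (ENSMUSG00000046908, mm10 chromosome 14, 55765962 to 55768494, plus strand) encodes BLT1, the high-affinity leukotriene B4 receptor by which neutrophils follow that lipid. It had 110 and 138 CPM in Aβ40 1 and 2, against 197 and 224 CPM in DMSO 1 and 2. The groups did not overlap, and the gap between them was wider than the spread in either pair. The means were 124 ± 19.5 CPM with Aβ40 and 211 ± 19.7 CPM with DMSO (SD, n = 2 each), a ratio of 0.589. The log2 fold change was -0.76 (SE 0.19, 95% confidence interval from -1.19 to -0.34; edgeR quasi-likelihood, Benjamini-Hochberg adjusted p = 0.244). Of all tested genes, 4.03% had a lower log2 fold change. Leaving out single libraries moved the value between -0.95 and -0.61. In those fits the group left with 1 library adds no spread of its own. The low-affinity receptor gene Ltb4r2 did not reach the expression filter, with at most 1.02 CPM in a library.

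Ptafr (ENSMUSG00000056529, mm10 chromosome 4, 132564067 to 132582683, plus strand) encodes the platelet-activating factor receptor, a G protein-coupled receptor like BLT1. Its level was 107 CPM in both Aβ40 libraries, against 135 and 156 CPM in DMSO 1 and 2. The Aβ40 libraries almost coincided and lay below both DMSO libraries. Its log2 fold change was -0.44 (SE 0.17, 95% confidence interval from -0.83 to -0.06; edgeR quasi-likelihood, Benjamini-Hochberg adjusted p = 0.362). Without DMSO 1 it was -0.54.

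Among the leukotriene synthesis genes the DMSO pair lay far apart for Alox5, high in DMSO 2, and Alox5ap, high in DMSO 1, but not for Lta4h. Alox5 (ENSMUSG00000025701, mm10 chromosome 6, 116410077 to 116461178, minus strand) encodes 5-lipoxygenase, the enzyme that opens the pathway. It had 127 and 118 CPM in Aβ40 1 and 2, against 119 and 189 CPM in DMSO 1 and 2. DMSO 2 was thus the single high library, and DMSO 1 fell between the Aβ40 libraries. On the log2 scale the fold change was -0.33 (SE 0.23, 95% confidence interval from -0.85 to 0.18; edgeR quasi-likelihood, adjusted p = 0.586). It was 0.03 without DMSO 2 and -0.64 without DMSO 1.

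Alox5ap (ENSMUSG00000060063, mm10 chromosome 5, 149264767 to 149288153, plus strand) encodes FLAP, the membrane protein that presents arachidonic acid to 5-lipoxygenase. It had 460 and 496 CPM in Aβ40 1 and 2, against 680 and 365 CPM in DMSO 1 and 2. Both Aβ40 libraries lay between the DMSO libraries, whose levels differed 1.86-fold, compared with 1.08-fold in the Aβ40 pair and a median of 1.21-fold in the DMSO pair over genes averaging 5 CPM or more. Over all 4 libraries the log2 fold change was -0.13 (SE 0.28, 95% confidence interval from -0.75 to 0.50; edgeR quasi-likelihood, adjusted p = 0.882). It was 0.39 without DMSO 1 and -0.52 without DMSO 2, so its sign depended on which DMSO library was kept.

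Lta4h (ENSMUSG00000015889, mm10 chromosome 10, 93453411 to 93484875, plus strand) encodes leukotriene A4 hydrolase, which completes leukotriene B4. Its level hardly varied, with 485 and 493 CPM in Aβ40 1 and 2, against 476 and 493 CPM in DMSO 1 and 2. The log2 fold change was 0.01 (SE 0.17), with a 95% confidence interval from -0.38 to 0.41, and its sign changed with the scaling of the libraries (-0.04 with library-size scaling). Ltc4s (ENSMUSG00000020377, mm10 chromosome 11, 50236461 to 50238616, minus strand) encodes leukotriene C4 synthase, which opens the cysteinyl leukotriene branch used by eosinophils and mast cells. It had 0 and 2 counts in Aβ40 1 and 2, against 5 and 0 counts in DMSO 1 and 2. At this depth 0 counts allow up to 3 counts, or 0.170 FPKM in Aβ40 1 and 0.158 FPKM in DMSO 2, a limit that covers counting error only. Eosinophil markers were present in all libraries at the summed levels given above.

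Of the prostaglandin genes, Ptgs1 (ENSMUSG00000047250, mm10 chromosome 2, 36230426 to 36252272, plus strand) encodes the constitutive cyclooxygenase COX-1. It had 37.5 and 41.8 CPM in Aβ40 1 and 2, against 58.3 and 55.2 CPM in DMSO 1 and 2. The groups did not overlap, and the pairs were 1.11-fold and 1.06-fold apart. In the fit the log2 fold change was -0.52 (SE 0.18, 95% confidence interval from -0.92 to -0.12; edgeR quasi-likelihood, adjusted p = 0.334), and none of the 17 alternative settings called it. Platelets are rich in COX-1, and megakaryocyte and platelet markers (9 of 10 with counts, Gp1bb at 0 in all libraries) summed to 29.4 and 31.9 CPM with Aβ40 against 35.9 and 32.1 CPM with DMSO. The part of those cells in the Ptgs1 difference was not tested.

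Ptgs2 (ENSMUSG00000032487, mm10 chromosome 1, 150100031 to 150108227, plus strand) encodes the inducible cyclooxygenase COX-2, which inflammatory signals switch on in leukocytes. It had 113 and 71.8 CPM in Aβ40 1 and 2, against 81.4 and 77.9 CPM in DMSO 1 and 2. Aβ40 1 was the single high library and Aβ40 2 the lowest of all 4. The Aβ40 pair differed 1.57-fold, and the DMSO pair 1.04-fold. The log2 fold change was 0.21 (SE 0.22, 95% confidence interval from -0.29 to 0.72; edgeR quasi-likelihood, adjusted p = 0.735), and it was -0.15 without Aβ40 1 and 0.48 without Aβ40 2.

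Ptges (ENSMUSG00000050737, mm10 chromosome 2, 30889471 to 30929863, minus strand) encodes the microsomal prostaglandin E synthase, which acts downstream of the cyclooxygenases and is often induced together with COX-2. It had 10.8 and 13.6 CPM in Aβ40 1 and 2, against 21.3 and 18.7 CPM in DMSO 1 and 2. The Aβ40 libraries were both low and the DMSO libraries both high, without overlap. The log2 fold change was -0.71 (SE 0.23, 95% confidence interval from -1.24 to -0.19; edgeR quasi-likelihood, adjusted p = 0.330). Without DMSO 2 it was -0.82. Ptges and Ptgs2 thus had log2 fold changes of opposite sign with all 4 libraries, and the difference between them was not tested.

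**Figure D3:**
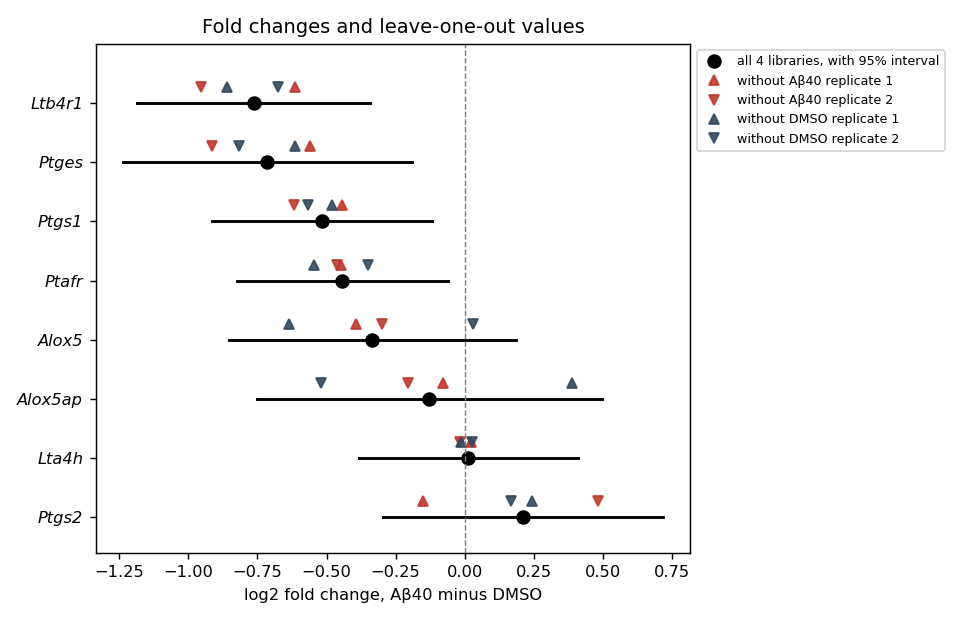
Log2 fold change of Aβ40 minus DMSO for the 8 tested genes; black points are the fit on all 4 libraries, lines its 95% confidence intervals, and triangles above them the values without 1 library. The 4 leave-one-out values stay below 0 for Ltb4r1, Ptges, Ptgs1 and Ptafr, and fall on both sides of 0 for Alox5 (-0.64 to 0.03), Alox5ap (-0.52 to 0.39), Lta4h and Ptgs2 (-0.15 to 0.48).

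Over the 17 alternative settings, each with the adjusted p of its own tool (edgeR, DESeq2 or limma), the lowest adjusted p was 0.000109 for Ltb4r1, 0.00831 for Alox5, 0.0258 for Ptges, 0.0300 for Ptafr, 0.0453 for Alox5ap, 0.0645 for Ptgs1, 0.486 for Ptgs2 and 0.953 for Lta4h. The highest was 0.997 for each of these genes other than Lta4h, where it was 0.9999. All of the lowest values other than that of Lta4h came from fits that left out a DMSO library. Those fits take their spread from the Aβ40 pair, so these values do not measure the spread between the DMSO libraries. Of these genes, Ltb4r1 was called in the most settings, 6 of the 17. Those settings also called more of all genes than the main fit, which called 0.126%. DESeq2 called 1.21% and the likelihood ratio test 1.64%. Without the expression filter 255 of 21760 genes were called, and with the block on crossed numbers, described below, 721 of 13479. The rest were fits that left out a DMSO library.

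In the coordinates of the deposited table, 5 of the genes overlapped no other gene: Alox5, Lta4h, Ltb4r1, Ptafr and Ptgs2. Alox5ap shared 189 exonic bases with the opposite-strand gene Gm19719, which had 61 counts in all 4 libraries together, and Ptgs1 shared 148 exonic bases with Gm43621, which had 5. Ltc4s shared 268 exonic bases with the antisense gene Gm26542, which had 5 counts in all. Exons are those of GENCODE M21, whose gene coordinates were the same for all 9 genes.

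Around these genes, 69 others of the pathway were listed by role, of which 11 had 0 counts in all libraries and 49 could be tested. Of the 49 tested, 0 were called in either direction by edgeR's quasi-likelihood test. DESeq2 called 2 of them higher, Alox15 and Pafah1b3, where it called 0.917% of all genes higher. At an unadjusted p under 0.05, 2 were higher and 3 lower, 10.2% of the 49, close to the 12.2% of all genes. The median log2 fold change of the 49 was 0.09, against 0.01 over all genes.

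The 2 genes with the highest fold changes were Pafah1b3 and Alox15. Alox15, the 12/15-lipoxygenase gene of mouse eosinophils and resident macrophages, had 43.6 and 32.8 CPM in Aβ40 1 and 2, against 12.6 and 16.8 CPM in DMSO 1 and 2. Both Aβ40 libraries were above both DMSO libraries, 1.38 apart on the log2 scale (SE 0.24; edgeR quasi-likelihood, adjusted p = 0.101; DESeq2, adjusted p = 0.000325; range over the 17 alternatives 1.77e-08 to 0.997). All 9 eosinophil markers likewise had both Aβ40 libraries above both DMSO libraries, as 23.2% of all genes did. Their median log2 fold change was 1.20, and 1 of them, Ear6, was called, against 0.126% of all genes. Of the 12 monocyte and macrophage markers, all with counts, 0 were called. At an unadjusted p under 0.05, 5 of these markers were higher, where 6.51% of all genes were. The 12 summed to 3743 and 3190 CPM with Aβ40 against 2815 and 2739 CPM with DMSO, most of it the monocyte gene Ly6c2. In that list 6 markers had both Aβ40 libraries above both DMSO libraries, 2 had them below and 4 overlapped. Of all genes, 23.2% were above and 21.9% below in this way. The 6 above were C1qb (1.62), Mrc1 (1.56), C1qc (1.39), C1qa (1.35), Ly6c2 (0.43) and Ms4a6c (0.42). The C1q genes and Mrc1 were low, with means of 4.05 to 8.57 CPM with Aβ40 and 1.58 to 2.79 CPM with DMSO. Alox15 averaged 38.2 CPM with Aβ40 and 14.7 CPM with DMSO. The 2 below were Csf1r (-0.25) and Cx3cr1 (-0.28), and Adgre1 overlapped at 0.14. The part of eosinophils or macrophages in the Alox15 difference was not tested.

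Pafah1b3, a catalytic subunit of an intracellular platelet-activating factor acetylhydrolase, had 21.9 and 20.7 CPM in Aβ40 1 and 2, against 8.36 and 8.66 CPM in DMSO 1 and 2. Each pair was tight and the groups were far apart, 1.32 on the log2 scale (SE 0.22; edgeR quasi-likelihood, adjusted p = 0.0832; DESeq2, adjusted p = 0.00169; range over the 17 alternatives 6.10e-06 to 0.997). The B cell markers above were higher in the same libraries, with 7 of 12 called, against 0.126% of all genes. Summed eosinophil, T and NK cell and dendritic cell markers were higher there too. The part of any of these cells in the Pafah1b3 difference was not tested. The partner subunit gene Pafah1b2 had 76.0 and 76.9 CPM with Aβ40, against 76.2 and 67.1 CPM with DMSO. Lpcat2, an enzyme that makes platelet-activating factor, was the most abundant gene of that role per length and was at -0.23 (SE 0.18).

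The 3 genes lower at an unadjusted p under 0.05 were Ggt5, Abcc1 and Abcc4. Ggt5, which trims leukotriene C4 to leukotriene D4, had 18.1 and 23.4 CPM with Aβ40, against 34.3 and 30.1 CPM with DMSO, at -0.63 (SE 0.22; edgeR quasi-likelihood, adjusted p = 0.334). Abcc1, an exporter of leukotriene C4, was at -0.43 (SE 0.18; adjusted p = 0.398), and Abcc4, an exporter of prostaglandins, at -0.55 (SE 0.21; adjusted p = 0.359). Without DMSO 2 Ggt5 was at -0.74, and without DMSO 1 Abcc1 was at -0.58. Abcc4 was called in none of the 17 alternative settings.

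The most abundant genes of the other roles had log2 fold changes between -0.20 and 0.35. Mgst1, abundant but not the highest of its role, had a mean of 99.8 FPKM and was at 0.41 (SE 0.18). Both its Aβ40 libraries were above both DMSO libraries, as for 23.2% of all genes. Cyp4f18, the leukotriene B4 hydroxylase of mouse neutrophils, had 175 and 166 CPM with Aβ40, against 176 and 163 CPM with DMSO. Its log2 fold change was 0.01 (SE 0.17) and turned to -0.04 with library-size scaling. Fpr2, a receptor for lipoxin A4 and formyl peptides and the most abundant of the 69 genes per length, was at 0.15 (SE 0.21). Cotl1, a protein that binds 5-lipoxygenase, was at -0.20 (SE 0.20), and 0.03 without DMSO 2. Among the most abundant genes of the remaining roles, the lysosomal phospholipase gene Pla2g15 was at -0.07 (SE 0.23). The 5 tested phospholipase A2 genes had a median of 0.38, with 4 above 0 and 1 below, and 0 were called. Log2 fold changes were 0.35 (SE 0.31) for the cysteinyl leukotriene receptor gene Cysltr1 and -0.06 (SE 0.17) for the cytosolic prostaglandin E synthase gene Ptges3. Hpgd, which inactivates prostaglandins, was at 0.31 (SE 0.22). Ptger4, a prostaglandin E2 receptor gene, was at -0.12 (SE 0.23), and Acsl4, which activates arachidonic acid for storage in membranes, at 0.04 (SE 0.17). Without a single library the sign also turned for Cyp4f18, Pla2g15, Cysltr1, Ptges3, Ptger4, Fpr2 and Acsl4.

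**Figure D4:**
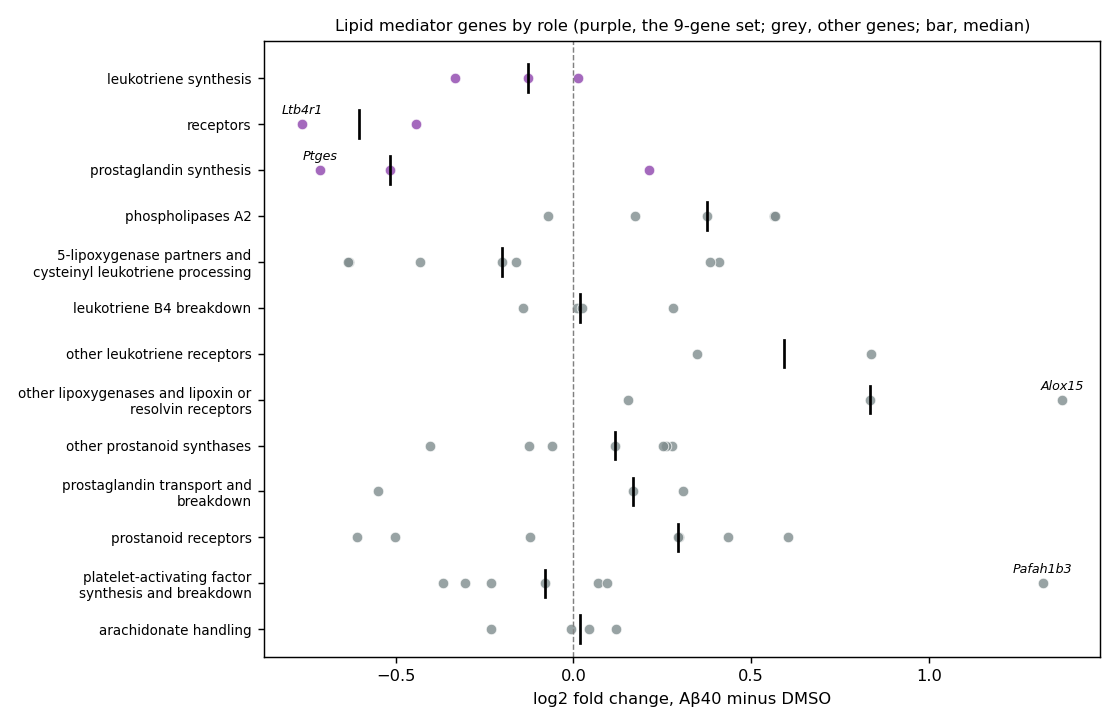
Log2 fold change of Aβ40 minus DMSO for the 57 tested genes of the pathway, each point 1 gene, by role; the rows in purple are the 8 tested genes of the set, grey rows the 49 others, and bars mark the median of a role. The receptors row holds Ltb4r1 and Ptafr at -0.76 and -0.44, and Alox15 and Pafah1b3 stand apart at 1.38 and 1.32.

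The genes whose profile over the 4 libraries was nearest to each member were sought among 8879 protein-coding genes whose mean reached 5 CPM, by the Euclidean distance between mean-centred log2 CPM. For Ltb4r1 they were Grn (distance 0.0252) and Dvl3 (0.0665). For Lta4h, which hardly varied, they were Gsdmd (0.0194) and Grsf1 (0.0204). For Ptafr they were E2f3 (0.0247) and Zfp516 (0.0261), and Ptges was nearest to Arid1a (0.0542). For Alox5 they were Atg2a (0.0348) and Stk35 (0.0428), and for Alox5ap Psmb4 (0.0437) and Tnfaip8l2 (0.0447). Ptgs1 was nearest to Ftl1-ps1 (0.0248) and Atf7ip (0.0339), and Ptgs2 to Chek1 (0.0709) and Eif2s3x (0.0819). With 4 libraries many genes come close by distance alone, so these names describe the profiles and nothing more.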

How the data were processed

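For 54532 genes, with symbols and mm10 positions, the authors deposited unnormalised read counts (whole numbers) and, separately, FPKM. The submitters' processing notes name HISAT2 2.0.5 and featureCounts 1.5.0-p3, without their roles. Whether counting used strand is not given in the sources used here, and reads of antisense genes may be mixed. The deposited FPKM equal counts divided by gene length and by a library size between 17389276 and 19335464, as checked on the values.

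The test was edgeR 4.0.16 (R 4.3.3) on the counts: filterByExpr kept 13479 genes, with TMM scaling and the quasi-likelihood test (2-sided, 2 residual and 6.88 prior degrees of freedom), Benjamini-Hochberg adjustment over those genes, and calls at an adjusted p under 0.05. Standard errors are the log2 fold change over the root of the F statistic, and the test was checked on simulated counts. Alternatives used DESeq2 1.42.0 and limma 3.58.1. Where 1 library is left out, the spread comes from the pair left whole, and the lone library is taken to vary like it. The DMSO pair was further apart than the Aβ40 pair for 63.4% of genes averaging 5 CPM or more.

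The rule for named genes took all 9 genes and, of the 69 others, those called, those with an unadjusted p under 0.05 and the most abundant per length of each role. It also took the 2 nearest profiles per gene. Ltb4r2, Pafah1b2, Mgst1, Ear6, Gzmb, Ly6g, Csf3r, Mmp9, Adgre1, Csf1r, Cx3cr1, Mrc1 and the C1q genes were named after their values were seen. So were S100a8, Ngp, Cxcr2, Mpo and Ms4a6c. The genes and lists were chosen with earlier results of these data known. The further neighbour that the naming rule gives for Ptges is not reported here.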

Additional observations from a re-analysis of the deposited data

How the results depend on the processing

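With 2 libraries a group, leaving out 1 decided most calls: over the 4 such fits the count of genes called ranged from 0 to 1276 over all genes, from 0 to 3 of the leukotriene and prostaglandin genes and from 0 to 5 of the other pathway genes. The fits without an Aβ40 library called 0 genes, with 17 called on all 4 libraries. DESeq2 called 135 of 11127 genes with an adjusted p, 1 of the 8 tested genes and 2 of the other pathway genes. With edgeR's likelihood ratio test the counts were 221 of 13479, 1 and 2. Without the expression filter they were 255 of 21760, 1 of 9 and 2 of 58. The cause was not tested. Limma on log2(FPKM + 1) and on log2(FPKM + 0.1) called 0 genes in all. Same-numbered libraries showed a correlation of deviations of -0.226, and the labels do not say that the numbers pair libraries. The fit with the replicate block called 27 of 13479 genes, 0 of them in the pathway. The block on crossed numbers, chosen after seeing the data, called 721 of the 13479, with 2 of the 8 genes and 3 of the others. Library-size scaling moved the log2 fold changes of all genes by a median of -0.051, the widest shift of the 3 other scalings.

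Some signs turned. Library-size scaling gave -0.040 for Lta4h, -0.039 for Cyp4f18 and -0.0017 for Acsl4, and the 2 FPKM fits gave -0.00040 for Lta4h and -0.0039 for Cyp4f18. Without single libraries, log2 fold changes ranged from -0.64 to 0.030 for Alox5, -0.52 to 0.39 for Alox5ap, -0.018 to 0.026 for Lta4h, -0.15 to 0.48 for Ptgs2, -0.24 to 0.099 for Pla2g15, -0.41 to 0.031 for Cotl1, -0.057 to 0.064 for Cyp4f18, -0.022 to 0.63 for Cysltr1, -0.088 to 0.34 for Fpr2, -0.18 to 0.052 for Ptges3, -0.34 to 0.047 for Ptger4 and -0.075 to 0.16 for Acsl4. Ltb4r1, Ptafr, Ptgs1 and Ptges were below 0 in each of the 17 alternative settings, and were called in 6, 1, 0 and 2 of them.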
